A study of Homo sapiens with 4 samples.

Results

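A set of 10 genes that make, limit and use polyamines was followed across 4 human leukemia cell lines: *ODC1*, *AMD1*, *SRM* and *SMS* (synthesis), *OAZ1* and *OAZ2* (antizymes), *AZIN1* (antizyme inhibitor), *SAT1* (catabolism), and *DHPS* and *DOHH*, which use spermidine to modify a translation factor. They were chosen by name, and all 10 were found among the 60651 genes in the files. The study sequenced ribosome-protected RNA fragments, called footprints here, in a series on non-coding RNAs that are translated. K562 is a line of chronic myeloid leukemia at blast crisis, THP-1 and MOLM13 from acute monocytic leukemias, and HL60 from an acute promyelocytic-like leukemia. The lines were grown in medium with serum, no treatment of them is named, and all were lysed in a buffer that held cycloheximide, which stops elongating ribosomes. Each line gave 1 library, so no difference between lines has a replicate check and no p-value is given.

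Polyamines are small cations, putrescine, spermidine and spermine, that bind nucleic acids and that growing cells need. Ornithine decarboxylase, made from *ODC1*, starts their synthesis, and antizymes bind it and send it to the proteasome. Antizyme is itself made only when ribosomes slip forward by 1 base at a stop codon, an event that polyamines favour, and the inhibitor encoded by *AZIN1* resembles ornithine decarboxylase, lacks its activity and holds antizyme back. Leader sequences before the coding region also tie translation of *AMD1* and *AZIN1* to the polyamine level.

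The frameshift sites are shown first because several results below turn on them. Sequences are from GENCODE release 29 transcripts on GRCh38 (hg38), written 5′ to 3′ on the strand of the gene. The site of *OAZ1* lies in coding exon 2, chr19:2271385-2271530 on the plus strand, and that of *OAZ2* in coding exon 2, chr15:64691434-64691591 on the minus strand. Capitals mark the last codon of the first reading frame, its stop codon and the next base.
OAZ1 exon 2: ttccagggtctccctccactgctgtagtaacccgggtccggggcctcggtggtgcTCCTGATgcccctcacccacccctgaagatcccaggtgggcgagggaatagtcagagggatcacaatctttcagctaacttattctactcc
OAZ2 exon 2: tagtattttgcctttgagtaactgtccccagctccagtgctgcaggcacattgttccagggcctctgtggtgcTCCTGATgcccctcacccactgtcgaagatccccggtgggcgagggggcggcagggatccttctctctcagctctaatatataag
Both genes thus end the first frame with TCC and TGA. When the T of the stop codon, at position 2271443 of chromosome 19 for *OAZ1* and 64691515 of chromosome 15 for *OAZ2*, is passed over, reading goes on at GAT. The next pair shows the sites as they are read after the slip, with the skipped base left out and the 2 codons around it in capitals.
OAZ1 after the slip: cggtggtgcTCCGATgcccctcacccaccc
OAZ2 after the slip: ctgtggtgcTCCGATgcccctcacccactg
Aligned at the site without gaps, 83 of 140 bases were identical between the genes, and a run of 27 identical bases lay over the site. The first frame holds 68 of 228 codons in *OAZ1* and 32 of 189 in *OAZ2*, so most of either coding region follows the slip. The last sequence is the short upstream reading frame of *AMD1*, chr6:110874796-110874816 on the plus strand, in exon 1 of the 5′ untranslated leader, with its start and stop codons in capitals.
AMD1 upstream frame: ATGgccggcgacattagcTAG
This frame has 6 codons before its stop and ends 289 bases ahead of the start codon of *AMD1*. Its peptide is known to stall the ribosome when polyamines are abundant.

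Levels below are scaled TPM, that is, deposited TPM (a share of the library corrected for transcript length) summed over a gene's transcripts and scaled between libraries by the median ratio over the 3751 genes whose TPM was 10 or more in each. Ranges in brackets are 95% Poisson intervals and cover counting error only. They were made from footprint equivalents, aligned bases divided by the commonest fragment length of 29 bases. With log2(scaled TPM + 1), a level 2 or more above each of the other lines was called high and one 2 or more below each of them low. At least 600 aligned bases were required in the line, or in each of the other 3 for a low call, and 600 bases amount to 20.7 footprint equivalents. Footprint level joins the amount of mRNA and its translation, and fewer cells that express a gene cannot be told apart from less RNA per cell.

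Aligned depth ran from 344 megabases in the MOLM13-labelled library to 973 in HL60, with 473 for K562 and 678 for THP-1. Of 5 erythroid markers all 5 were above 0 in K562 and none in THP-1 or HL60, and all 5 granulocytic markers were at 0 in K562. In the MOLM13-labelled library 2 erythroid markers were above 0, with a sum of 17.3 against 14822 in K562. The granulocytic markers summed to 32.1 in that library, 8243 in THP-1 and 9249 in HL60. Monocytic markers summed to a scaled TPM of 425 in HL60 and 1200 in THP-1, but to 22.4 in the MOLM13-labelled library, where CD68 was listed at 0. Markers of other blood cells (CD3D, CD3E and CD79A) summed to 903 there and to at most 49.0 elsewhere. That library's file also carries a name other than its label, so the label went unchecked, and values are given for the MOLM13-labelled library rather than for the line. Whether this bears on the polyamine genes was not tested.

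Of the 10 genes, 2 passed the rule: *OAZ1* and *SMS* were low in K562. Among 8536 protein-coding genes that could be called, 5.06% were low in K562, and 370 of those 432 were listed at 0 there, as *SMS* was. Over all lines and both directions, 14.2% of protein-coding genes were called. A range over the lines of at least 2 log2 units was found in 7 of 10, the 2 called genes among them. The share was 39.1% among the 11810 protein-coding genes that reached a scaled TPM of 1 somewhere. The median range of the 10 genes was 2.703 log2 units and that of all these protein-coding genes 1.66. This comparison was not matched for level. The lowest peak among the 10 genes was 11.9 (*DOHH* in K562), while genes that peak near 1 cannot reach a range of 2. *OAZ2*, *SRM* and *DOHH* had the smaller ranges. Together the 10 genes held between 0.0771% (K562) and 0.131% (THP-1) of protein-coding aligned bases. Of the bases on these genes *OAZ1* alone held 64.7% in HL60, 59.9% in THP-1, 27.4% in the MOLM13-labelled library and 6.70% in K562.

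**Figure D1:**
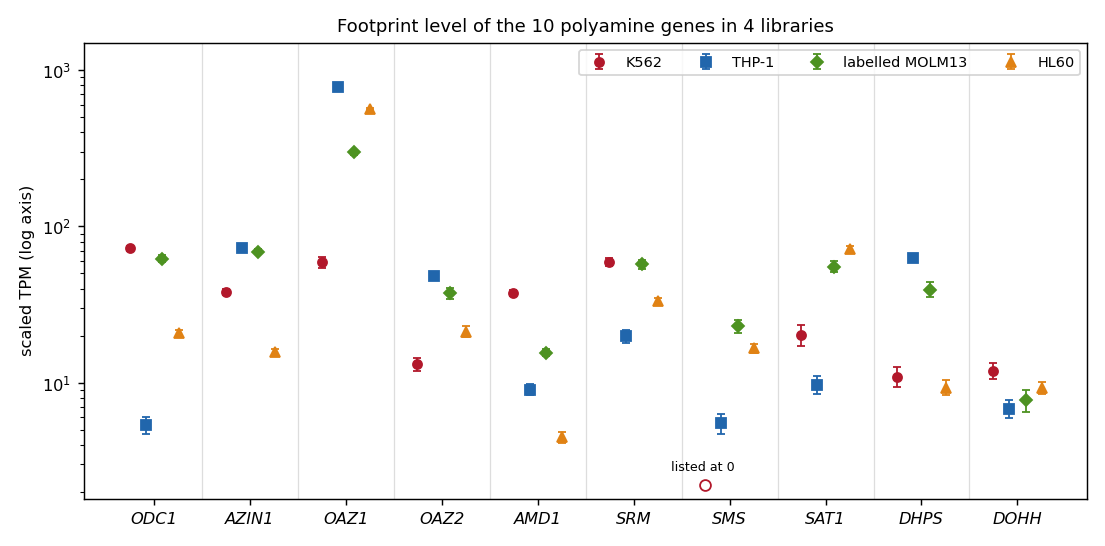
Scaled TPM (log axis) of the 10 polyamine genes in the 4 libraries, with 95% Poisson intervals for counting error only; the open circle marks *SMS*, listed at 0 in K562. *OAZ1* runs from 58.8 in K562 to 782 in THP-1, and *ODC1* from 5.31 in THP-1 to 72.5 in K562.

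*ODC1* (chromosome 2, 10439968 to 10448327, minus strand), the decarboxylase that makes putrescine, ranged from its highest level in K562 to its lowest in THP-1. Its scaled TPM was 72.5 in K562 (69.8 to 75.3) and 62.2 in the MOLM13-labelled library (59.3 to 65.2). It was 20.7 in HL60 (19.7 to 21.7) and 5.31 in THP-1 (4.70 to 5.99). The highest level was 13.6 times the lowest, and THP-1 lay 1.78 log2 units below the next line, short of a call. With deposited TPM not scaled further, the MOLM13-labelled library (69.8) lay above K562 (60.7). Within each library, 87.6% of protein-coding genes above 0 lay below *ODC1* in K562 and 40.2% in THP-1. The genes with the most similar profile, by root mean square distance of the centred log2 profiles over the 4 lines among 3423 candidates, were REXO2 (0.38), FKBP4 (0.45) and USP22 (0.53).

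The contrast between K562 and THP-1 was wider over the wholly coding exons of *ODC1* than over the whole gene, but not on the exon with the start codon. Exon levels here are the coverage of an exon summed over transcripts and brought to the scale of the scaled TPM. Exon 3, with the start codon, stood at 358 in K562 and 345 in the MOLM13-labelled library, at 94.2 in HL60 and at 42.4 in THP-1. The 8 exons that are wholly coding, exons 4 to 11, had a joint level of 91.5 in K562 and 79.8 in the MOLM13-labelled library. That joint level was 18.8 in HL60 and 2.36 in THP-1. The exon with the start codon therefore exceeded the coding exons by 3.91 times in K562, 17.96 times in THP-1, 4.32 times in the MOLM13-labelled library and 5.01 times in HL60. The median over genes of the same ratio was 0.832, 1.57, 0.813 and 1.25, and 9.89%, 1.33%, 7.09% and 7.43% of genes had a higher ratio than *ODC1*. Exons 1 and 2, wholly before the start codon, were at 0.474 of the coding level in K562 and 0.616 in the MOLM13-labelled library, but at 2.21 in HL60 and 5.94 in THP-1.

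*AMD1* (chromosome 6, from 110874770, plus strand) makes S-adenosylmethionine decarboxylase, which supplies the aminopropyl groups for spermidine and spermine. Its scaled TPM was 37.6 in K562 (36.0 to 39.4) and 15.6 in the MOLM13-labelled library (14.7 to 16.5). It was 9.02 in THP-1 (8.32 to 9.75) and 4.46 in HL60 (4.12 to 4.83). No intervals overlapped, and K562 lay 1.22 log2 units above the next line. That distance was 0.34 when transcript length was not divided out and -0.067 with wholly coding exons, where the MOLM13-labelled library was highest. All *AMD1* bases of that library were assigned to a transcript of 6589 bases, while 91.5% of those in K562 were assigned to one of 3419 bases, and the part of this in the difference was not tested. Exon 1, which holds the upstream frame shown above and the first 110 coding bases, was at 180 in K562, 60.8 in THP-1, 125 in the MOLM13-labelled library and 35.2 in HL60. The wholly coding exons stood at 54.6, 3.74, 60.9 and 4.51 in the same order, so exon 1 exceeded them by 3.30, 16.3, 2.05 and 7.79 times. A higher ratio was found in 12.4% of genes in K562, 1.60% in THP-1, 20.9% in the MOLM13-labelled library and 3.43% in HL60. The deposited coverage is a mean per exon and does not resolve the upstream frame from the start of the coding region.

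*SRM* and *SMS* encode the synthases of spermidine and spermine. *SRM* (chromosome 1, from 11054584) had a scaled TPM of 58.9 in K562 (55.4 to 62.5) and 57.1 in the MOLM13-labelled library (53.2 to 61.3), whose intervals overlapped. It was 33.2 in HL60 (31.4 to 35.02) and 19.8 in THP-1 (18.04 to 21.7), the same order of lines as for *ODC1*. *SMS* (X chromosome, from 21940709) was listed at 0 in K562 and stood at 5.47 in THP-1 (4.72 to 6.31), 22.9 in the MOLM13-labelled library (20.8 to 25.1) and 16.5 in HL60 (15.5 to 17.7). No fold is given against a value listed at 0. Of 48 protein-coding genes within 5 megabases of *SMS* or *SAT1*, 20 had at least 600 aligned bases in K562 and 22 or 23 in each other library. Of the 6 that lie between *SMS* and *SAT1*, 1 had as many in K562, 2 in THP-1, 3 in the MOLM13-labelled library and 2 in HL60.

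*OAZ1* (chromosome 19, from 2269509, plus strand), the main antizyme of most tissues, was the most heavily occupied of the 10 genes in 3 libraries. Its scaled TPM was 782 in THP-1 (770 to 795) and 568 in HL60 (560 to 576). It was 297 in the MOLM13-labelled library (287 to 307) and 58.8 in K562 (54.3 to 63.5), which lay 2.32 log2 units below the next line. In THP-1 it ranked 111th of 11580 protein-coding genes above 0 and in K562 1500th of 9887. *OAZ2* (chromosome 15, from 64687573, minus strand) had 48.3 in THP-1 (45.8 to 51.0), 37.3 in the MOLM13-labelled library (34.4 to 40.4), 21.2 in HL60 (19.5 to 23.1) and 13.1 in K562 (11.8 to 14.4). By scaled TPM both antizymes were thus highest in THP-1 and lowest in K562, although K562 was not the lowest for *OAZ2* with bases not divided by length (0.54 log2 units above the lowest other line). The ratio of *OAZ1* to *OAZ2* was 4.49 in K562, 7.96 in the MOLM13-labelled library, 16.2 in THP-1 and 26.8 in HL60. Nearest in profile to *OAZ1* were LAMTOR2 (0.28), ERLIN1 (0.39) and NUCB2 (0.43).

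The exons of *OAZ1* did not share this order evenly. Exon 1 carries the start codon and 146 of its 225 bases are coding; exon 2 holds the frameshift site shown above; exons 3 and 4 lie wholly after it. Exon 1 stood at 2869 in THP-1, 2066 in HL60 and 1101 in the MOLM13-labelled library, and it was listed at 0 in K562. Exon 2 was high in THP-1 (458) and HL60 (455) and low in the MOLM13-labelled library (107) and K562 (92.1). Exons 3 and 4 together stood at 121 in THP-1, 149 in HL60, 52.8 in the MOLM13-labelled library and 54.6 in K562. After the site the MOLM13-labelled library and K562 were at nearly one level.

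Coverage after the site was 0.0422 of that of exon 1 in THP-1 (0.0390 to 0.0457), 0.0480 in the MOLM13-labelled library (0.0408 to 0.0565) and 0.0724 in HL60 (0.0683 to 0.0767). The same ratio of exons 3 and 4 to exon 1 over protein-coding genes had medians of 0.651, 1.42 and 0.877 in these libraries. It was lower than in *OAZ1* in 1.73%, 1.09% and 1.99% of genes. Measured against the exon with the site, coverage after it was 0.264 in THP-1, 0.328 in HL60, 0.492 in the MOLM13-labelled library and 0.593 in K562, against gene medians of 0.676, 0.684, 0.788 and 0.828. Between 13.3% and 36.4% of genes had a lower value of this second ratio. Exon 2 stood at 0.160 of exon 1 in THP-1, 0.0976 in the MOLM13-labelled library and 0.220 in HL60. The gene medians of that ratio were 0.908, 1.60 and 1.21. In these libraries most of the fall thus lay between exon 1 and exon 2, while in K562 exon 1 was listed at 0. Exon 2 holds bases of both frames, with the site at its base 59 of 146, and exon 1 includes untranslated bases, so these ratios are not a frameshift efficiency.

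The value of 0 for exon 1 in K562 came with a different assignment of reads to transcripts. In K562, 93.4% of the *OAZ1* bases were assigned to transcripts classed as retained-intron, and every transcript with exon 1 was listed at 0. Retained-intron transcripts held 22.9% in THP-1, 26.2% in HL60 and 2.89% in the MOLM13-labelled library, where 88.3% lay on a transcript of the nonsense-mediated decay class. An exon with the start codon was listed at 0 in 7.73% of the genes that have at least 10000 aligned bases in coding exons in K562, in 3.09% in THP-1, in 6.35% in the MOLM13-labelled library and in 2.82% in HL60. The part of this assignment in the low call of *OAZ1* was not tested. With wholly coding exons alone, an alternative chosen after seeing the data and scaled on its own, *OAZ1* was at 66.0 in K562, 66.0 in the MOLM13-labelled library, 266 in HL60 and 262 in THP-1, and the low call in K562 was lost.

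In *OAZ2*, exons 3 and 4 also stood below exon 1 in all 4 libraries, but exon 2 did not follow a common pattern. It was near exon 1 in HL60 and below exons 3 and 4 in K562. Exon 1, of whose 253 bases only 20 are coding, stood at 162 in THP-1, 131 in the MOLM13-labelled library, 58.4 in K562 and 31.0 in HL60. Exons 3 and 4 stood at 41.7, 17.6, 16.7 and 5.17 in the same order, which is 0.257, 0.134, 0.286 and 0.167 of exon 1. Lower ratios were found in 17.2%, 3.35%, 10.95% and 6.20% of genes. Exon 2, with the site, was at 69.3 in THP-1, 60.5 in the MOLM13-labelled library and 29.8 in HL60, but at 2.46 in K562 (0.882 to 5.44), where it rested on 5.77 footprint equivalents.

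**Figure D2:**
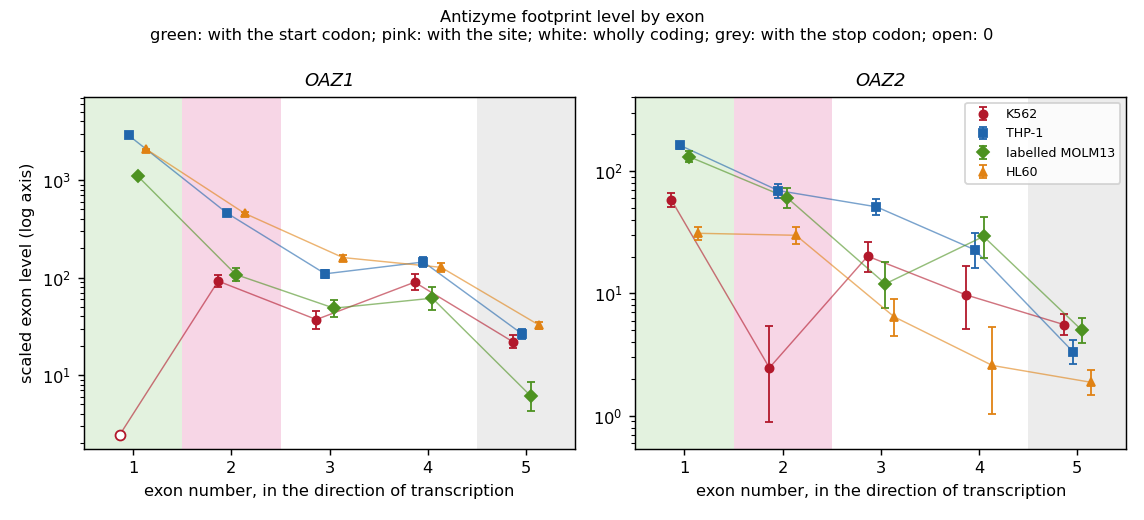
Scaled exon level (log axis) of *OAZ1* and *OAZ2* by exon number in the 4 libraries, with 95% Poisson intervals for counting error only; open symbols are listed at 0. *OAZ1* falls from 2869 on exon 1 to 458 on exon 2 in THP-1, while exon 1 is listed at 0 in K562.

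*AZIN1*, the antizyme inhibitor (chromosome 8, from 102826308, minus strand), had a scaled TPM of 72.4 in THP-1 (70.5 to 74.2) and 68.7 in the MOLM13-labelled library (66.3 to 71.1), with overlapping intervals. It was 37.9 in K562 (36.3 to 39.5) and 15.7 in HL60 (15.1 to 16.4), and HL60 lay 1.22 log2 units below the next line. Most of this signal lay before the start codon. Exons 1 and 2, wholly leader, had a joint level of 193 in K562, 540 in THP-1, 417 in the MOLM13-labelled library and 124 in HL60. The wholly coding exons 4 to 11 had 32.7, 10.3, 46.1 and 3.51.

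The leader of *AZIN1* was thus at 5.90 times the coding exons in K562 (5.35 to 6.51), 52.4 times in THP-1 (46.0 to 59.7), 9.04 times in the MOLM13-labelled library (8.26 to 9.90) and 35.2 times in HL60 (29.4 to 42.2). Across 2564 to 3014 genes with such exons the median ratio was 0.363, 0.997, 0.387 and 0.689. A higher ratio than that of *AZIN1* was found in 5.58%, 0.398%, 2.69% and 0.652% of them. THP-1 and HL60 had the higher leader ratios for *AZIN1*, for *ODC1* and in the median gene, so the direction of this difference between libraries was shared with genes at large. *DOHH*, the other gene here with a leader exon, had a different order. Its ratio was 8.67 in K562 (4.64 to 16.2), 2.37 in THP-1 (1.51 to 3.73) and 0.414 in HL60 (0.271 to 0.633). Its leader was listed at 0 in the MOLM13-labelled library. The K562 ratio of *DOHH* rested on 40.8 footprint equivalents in the leader and 13 in the coding exons. By coding exons alone, scaled on their own, *AZIN1* was at 42.0 in the MOLM13-labelled library, 31.6 in K562, 11.1 in THP-1 and 3.60 in HL60, which moved THP-1 from the highest place to the place below K562.

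**Figure D3:**
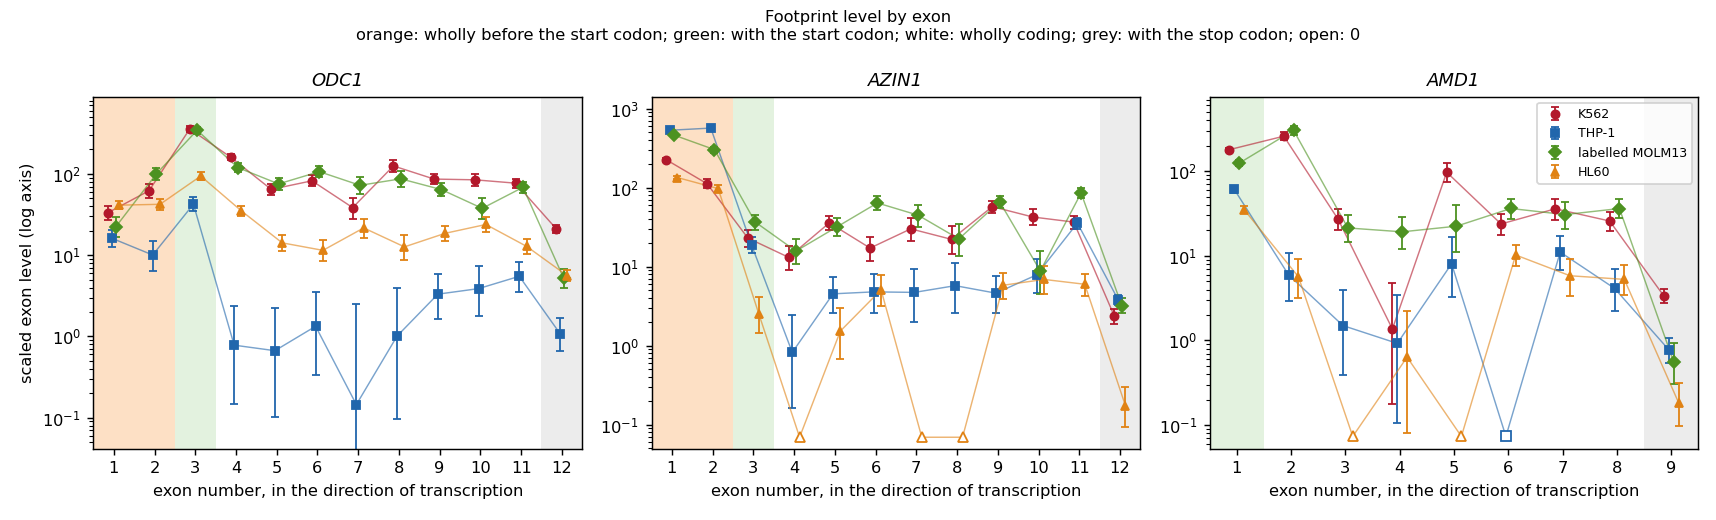
Scaled exon level (log axis) of *ODC1*, *AZIN1* and *AMD1* by exon number in the 4 libraries, with 95% Poisson intervals for counting error only; open symbols are listed at 0. In THP-1 *AZIN1* falls from 540 over its leader exons to 10.3 over the coding exons, and *ODC1* from 42.4 on exon 3 to 2.36.

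Ratios within a library need no scaling between libraries. *ODC1* over the sum of the antizymes *OAZ1* and *OAZ2*, as deposited TPM, was 1.01 in K562 (0.939 to 1.08), 0.186 in the MOLM13-labelled library (0.176 to 0.197), 0.0351 in HL60 (0.0334 to 0.0369) and 0.00640 in THP-1 (0.00567 to 0.00722). *AZIN1* over the same sum was 0.527, 0.205, 0.0267 and 0.0871. With coding exons of *ODC1* and only antizyme exons after the frameshift site, the first ratio became 1.28 in K562, 1.13 in the MOLM13-labelled library, 0.122 in HL60 and 0.0145 in THP-1. The order of the lines stayed, and the gap between K562 and the MOLM13-labelled library shrank. For *AZIN1* the coding version gave 0.458, 0.655, 0.0227 and 0.0634, in which the MOLM13-labelled library passed K562.

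*SAT1* (X chromosome, from 23783173) acetylates spermidine and spermine for breakdown or export. Its scaled TPM was 71.6 in HL60 (68.8 to 74.5), 55.2 in the MOLM13-labelled library (50.8 to 59.9), 20.1 in K562 (17.1 to 23.5) and 9.68 in THP-1 (8.41 to 11.1). Wholly coding exons, scaled on their own, gave 57.8 in HL60 and 16.2, 13.0 and 7.19 in the MOLM13-labelled library, K562 and THP-1. On the scale of the scaled TPM, the start-codon exon of the MOLM13-labelled library was at 128 and its coding exons at 17.7, which is the 16.2 above before scaling on coding exons alone. In K562 all *SAT1* bases were assigned to processed transcripts that lack the start-codon exon, which was listed at 0.

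*DHPS* and *DOHH* turn a lysine of the translation factor EIF5A into hypusine, from spermidine, in successive steps. *DHPS* (chromosome 19, from 12675717) had 63.2 in THP-1 (59.5 to 67.0) and 39.4 in the MOLM13-labelled library (35.1 to 44.0). It had 10.9 in K562 (9.38 to 12.6) and 9.30 in HL60 (8.30 to 10.4), whose intervals overlapped. *DOHH* (chromosome 19, from 3490821) varied least of the 10 genes, with 11.9 in K562 (10.6 to 13.3), 9.21 in HL60 (8.42 to 10.0), 7.69 in the MOLM13-labelled library (6.51 to 9.02) and 6.79 in THP-1 (5.93 to 7.74). Only K562 stood clear of its neighbour in that order by these intervals. By coding exons its order changed to HL60 at 16.8, the MOLM13-labelled library at 8.84, THP-1 at 6.86 and K562 at 2.695. The ratio of *DHPS* to *DOHH* was 0.916 in K562, 9.31 in THP-1, 5.12 in the MOLM13-labelled library and 1.01 in HL60. By coding exons *DHPS* was at 9.85 in K562, 32.9 in THP-1, 19.5 in the MOLM13-labelled library and 8.19 in HL60. By that measure the gap in the ratio between K562 and THP-1 was much smaller, and HL60 had the lowest ratio. The coding level of *DOHH* in K562 rested on 13 footprint equivalents. Their substrate EIF5A, named outside the rule for named genes, was far more heavily occupied, at 844 in K562, 337 in THP-1, 636 in the MOLM13-labelled library and 387 in HL60.

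Counting wholly coding exons changed which genes were called. By this measure *SMS* stayed low in K562, where 7.31% of protein-coding genes were low, and *ODC1* became low in THP-1, where 1.19% were. In all, 2 of 10 were called, against 18.8% of protein-coding genes. The line with the highest level was the same by both measures for 6 of the 10 genes and for 74.0% of 10317 protein-coding genes. The 4 that differed were *OAZ1*, *AZIN1*, *AMD1* and *DOHH*, and for *OAZ1* and *AMD1* the intervals of the 2 highest lines overlapped by coding exons.

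**Figure D4:**
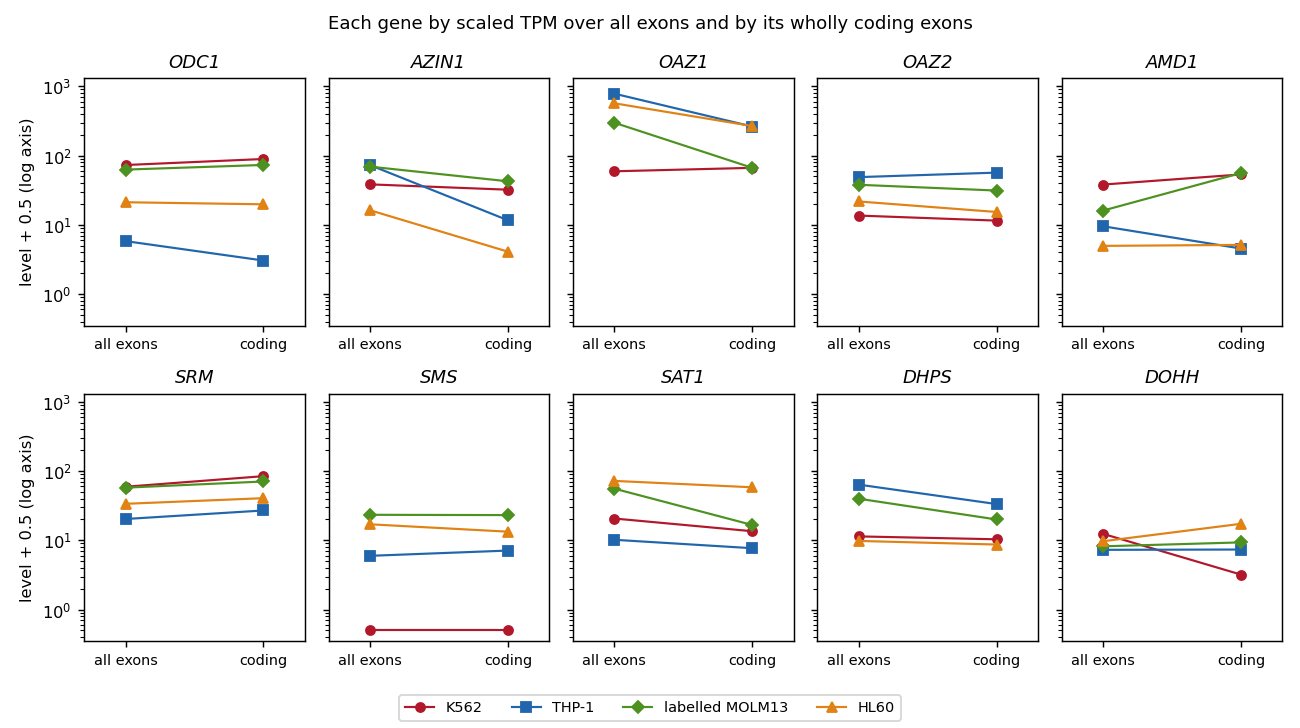
Level of each gene in the 4 libraries over all exons (scaled TPM) and over its wholly coding exons, each plus 0.5 on a log axis. *OAZ1* in the MOLM13-labelled library falls from 297 to 66.0 and meets K562, and *AZIN1* in THP-1 falls from 72.4 to 11.1.

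A list of 24 other genes of polyamine supply, breakdown and transport was followed alongside. In any line, 15 reached a scaled TPM of 1, and 8 were listed at 0 in all 4: the antizyme OAZ3, the inhibitor AZIN2, SATL1, the oxidase PAOX, the arginases ARG1 and ARG2, ATP13A4 and SLC22A3. Of all 19893 protein-coding genes, 11810 reached a scaled TPM of 1 in any line. By the rule 1 was called, against 14.2% of the 12589 protein-coding genes that could be called. ATP13A2, a lysosomal polyamine exporter, was low in K562 with 0, against 4.30 in THP-1, 12.1 in the MOLM13-labelled library and 5.39 in HL60. The median range of the 15 genes was 1.43 log2 units, against 1.66 for all protein-coding genes that reached a scaled TPM of 1. MTAP, which salvages the methylthioadenosine left by both synthases, had the widest range, with 0 in K562, 0.504 in THP-1, 32.1 in the MOLM13-labelled library and 50.5 in HL60. SLC18B1, a vesicular polyamine transporter, was at 19.7 in K562 and 9.24 in the MOLM13-labelled library and had a listed value of 0 in both THP-1 and HL60. SAT2 was at 31.2 in the MOLM13-labelled library, 19.0 in K562, 9.47 in THP-1 and 1.63 in HL60. MAT2B, the regulatory subunit of S-adenosylmethionine synthetase, was at 108 in HL60, 46.8 in THP-1, 41.4 in the MOLM13-labelled library and 20.6 in K562.

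Taken by library, the 10 genes had a median log2 difference from the mean of the other 3 lines of -0.46 in K562, -0.32 in THP-1, 0.84 in the MOLM13-labelled library and -0.36 in HL60. The same medians over all protein-coding genes were -0.10, 0.05, 0.12 and -0.21. The 15 other pathway genes had 0.19, -0.19, 0.02 and -0.14.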

How the data were processed

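Ribosome-protected fragments from 4 cell lines were sequenced, with 1 library each. Trimming used Trim Galore 0.6.6 and the build was hg38, per the submitters' processing notes, which also name StringTie 2.1.5, the aligner STAR 2.7.8a and Bowtie2 2.4.2. Per the file headers, StringTie estimated read 1 against GENCODE release 37 with no new transcripts and no strand option, so reads of overlapping or antisense genes are not told apart. The deposited values are TPM and mean per-base coverage for each of 234485 transcripts and, on every exon, coverage (per the file headers); they are model-based estimates, and reads that several transcripts share were divided by the authors' software. Read counts were not used here.

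TPM was summed per gene and scaled by factors of 0.837 (K562), 1.01 (THP-1), 1.12 (the MOLM13-labelled library) and 1.05 (HL60). Aligned bases are coverage times length. Start and stop codons came from GENCODE release 29 for 1 reference transcript per gene. Exons wholly before the start codon were used when they had at least 30 bases, and other exons had no minimum length. The exon ratio medians cover genes with at least 600 aligned bases over the exons used and some coverage in the part divided by. For the antizyme comparison, genes also needed some coverage both in the exon with the start codon and in the later exons. Processed pseudogene copies of these genes held at most 672 aligned bases. The rule for the calls was tested on simulated data that held counting error only, with planted changes larger than the rule requires. That test cannot show how the calls fare under the assignment of reads to transcripts or between replicate libraries. Work was done in Python 3.11.15 with pandas 2.3.3, NumPy 2.4.6, Matplotlib 3.10.9 and SciPy 1.17.1.

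The genes, the pathway list and the tests were chosen with earlier results of these data known. Named genes are the 10 genes, the pathway genes called or with the 5 widest ranges, and the 3 nearest profiles of *ODC1* and of *OAZ1*. EIF5A, the substrate of *DHPS* and *DOHH*, and the pathway genes listed at 0 in all libraries were named outside this rule, with their values seen. Wholly coding exons, and leaving out genes listed at 0, were alternatives added after the data were seen. Some listed genes are not reported here.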

Additional observations from a re-analysis of the deposited data

How the results depend on the processing

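No paired analysis was possible because each line has 1 library. Each value thus rests on 1 library, and the intervals cover counting error only. The results that follow changed, and the cause was not tested except where fewer exons, genes or libraries enter by construction. No exon of the 10 reference transcripts lies wholly after the stop codon, so no such ratio was made.

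Of the 10 genes, 2 were called under all 3 other scalings, under the pseudocount of 0.1 and with no minimum or a minimum of 3000 aligned bases. The count was 1 with a pseudocount of 5 (*SMS* lost), 1 without genes listed at 0, 5 at a log2 distance of 1 and 0 at a distance of 3. It was 3 without the MOLM13-labelled library, where *DHPS* became high in THP-1 (2.43 log2 units). Retained-intron transcripts held 48.4% of the *DHPS* bases in THP-1. By wholly coding exons *DHPS* was at 32.9 in THP-1, 9.85 in K562 and 8.19 in HL60, closer together than by scaled TPM. The call without that library was not run on coding exons. Of the other pathway genes, 1 in the main count, 2 were called with TPM rescaled over nuclear protein-coding genes, 3 with bases not divided by length, 4 with a pseudocount of 0.1 and 0 with one of 5. The count was 3 without the MOLM13-labelled library, 3 with wholly coding exons and 0 without genes listed at 0. Apart from wholly coding exons, the share of all protein-coding genes called was not counted under these other settings. Whether these counts differ from genes at large was therefore not tested.

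Of 70 distances of a gene's most separate line under other settings, 63 kept their direction and side of the threshold. *OAZ2* in K562 turned from -0.66 to 0.54 with bases not divided by length, and *SMS* in K562 weakened to -1.07 with a pseudocount of 5. With wholly coding exons *OAZ1* in K562 lost its distance (-0.00082), *ODC1* in THP-1 reached -2.51, and K562 ceased to be highest for *AMD1* (-0.067) and *DOHH* (-2.27).

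The ratio of *ODC1* to both antizymes, in the order K562, THP-1, the MOLM13-labelled library and HL60, was 2.58, 0.0158, 0.435 and 0.0832 with bases not divided by length and 1.09, 0.0128, 0.2145 and 0.0509 with the most covered transcript of each gene. With *OAZ1* alone it was 1.23 in K562 and 0.209 in the MOLM13-labelled library, and with coding exons 1.28, 0.0145, 1.13 and 0.122. The *AZIN1* ratio was 2.11, 0.355, 0.789 and 0.1075 with bases not divided by length and 0.464, 0.161, 0.2153 and 0.0391 with the most covered transcript. It was 0.644, 0.0925 and 0.231 with *OAZ1* alone in the first 3 and 0.458, 0.0634, 0.655 and 0.0227 with coding exons.

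Coverage after the frameshift site of *OAZ1* over that before it, for THP-1, the MOLM13-labelled library and HL60, was 0.0630, 0.0744 and 0.104 with the site exon counted before and 0.0846, 0.0659 and 0.126 with it counted after. The most covered transcript gave 0.0509 in THP-1 and 0.00739 in the MOLM13-labelled library. For *OAZ2* the site exon counted before gave 0.453 in K562 and 0.330 in THP-1, and counted after 0.194, 0.321, 0.257 and 0.466 in the 4 libraries; the most covered transcript gave 0.216 in K562. The leader ratios of *AZIN1* stayed within their counting intervals with the most covered transcript and with exons of at least 100 bases.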

Other observations

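An alternative exon of *SAT1* is known to carry early stop codons, and its inclusion directs the transcript to decay. This exon of 110 bases, on the X chromosome from 23784294 to 23784403 (hg38), held signal only in HL60 among the 4 libraries. Its level there was 3.98, against 50.7 on coding exon 3 and 67.1 on coding exon 4, or 6.76% of their mean. HL60 also had the most footprint equivalents over all of *SAT1*, 2384, against 581 (MOLM13-labelled library), 209 (THP-1) and 160 (K562). Coding exon 4 itself was listed at 0 for THP-1. With so few footprints outside HL60, the lack of signal on the alternative exon cannot show that it was absent from those libraries. *DHPS* coding exon 7 was listed at 0 in K562 and THP-1 and was at 0.0199 and 0.287 in the MOLM13-labelled library and HL60, where exon 6 stood at 31.5 and 6.78. In K562 and HL60, 89.9% and 88.0% of *DHPS* bases were assigned to transcripts of the nonsense-mediated decay class, in THP-1 51.6%, and in the MOLM13-labelled library 63.9% to coding ones.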
